A study of Homo sapiens with 8 samples.

Results

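The genes of the cytosolic ribosomal proteins were followed in H9, an established line of human embryonic stem cells, on a soft and a stiff gel, after and before induction to mesoderm. Members were the rows of the deposited tables whose gene name is a single symbol of RPL or RPS plus a number, with RPSA, RPLP0, RPLP1 and RPLP2, and without pseudogenes, antisense names and the RPS6 kinases. There were 69 such rows among 34690 loci of the day 3.5 table and 69 among 33575 loci of the day 0 table, or 70 symbols in all. The authors had tested 65 of them on both days at an FPKM (fragments per transcript length and library size) of at least 1 in a group, 39 of the large and 26 of the small subunit.

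The 4 groups, of 2 libraries each, were cells induced with bFGF, Activin, VEGF and BMP4 (day 3.5) on 400 Pa gels, induced cells on 60 kPa gels, undifferentiated cells (day 0) on 400 Pa gels, and undifferentiated cells on 60 kPa gels, all in feeder-conditioned medium. All libraries came from 1 cell line, and whether both libraries of a group were grown separately is not stated in the labels. The deposited tables give 1 FPKM per group, so that depth is unknown and no SD or n stands behind a level. A p-value of the authors' comparison rests on these libraries only, and the spread between them may be technical. The pluripotency factor POU5F1 was at 114 FPKM on 400 Pa and 122 FPKM on 60 kPa at day 3.5, against 340 and 409 FPKM on the same gels at day 0. The mesoderm gene HAND1 was at 53.8 FPKM on 400 Pa and 6.07 FPKM on 60 kPa at day 3.5, and at 0.296 and 0.0646 FPKM at day 0. Of the other markers looked up, NANOG was lower and T, MIXL1 and MESP1 were higher at day 3.5 on both gels, as the day labels describe. On 60 kPa, however, the pluripotency gene SOX2 was at 164 FPKM at day 3.5, against 116 FPKM at day 0, and LIN28A was at 239 FPKM at day 3.5, against 249 FPKM at day 0. On 400 Pa, SOX2 was at 54.0 FPKM at day 3.5, against 114 FPKM at day 0, and LIN28A at 131 FPKM, against 304 FPKM.

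Ribosomal proteins clothe the ribosomal RNAs of a small subunit, which reads the mRNA, and a large subunit, which joins amino acids. Each subunit normally holds 1 copy of most of them, and their genes are known for high and coordinated expression in growing cells such as embryonic stem cells. Their mRNAs usually begin with a cytosine and a run of pyrimidines, the TOP motif, through which mTOR and LARP1 set how much of the mRNA is translated. The introns of many of these genes hold small nucleolar RNA (snoRNA) genes, whose products guide the modification of ribosomal RNA. RNA level in a culture does not show translation, and in such bulk samples fewer cells of a type and less RNA per cell cannot be told apart.

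The sequence at the start of transcription is a feature that the choice of members did not use. In the RefSeq promoter table (build GRCh38.p14), 54 members were matched by symbol. At an annotated start of 40 of these 54 (74.1%) the first base was C, followed by at least 4 further C or T, as it was in 5.14% of the 27305 genes in the table. The median tract of those 40 members was 8 bases and the longest, of RPL39, was 19 bases. Starting the search anywhere from 10 bases before to 15 bases after the annotated start, such a run was found in 49 members (90.7%) and in 38.4% of all genes. These are descriptions of sequence, and for 14 members no tract at the annotated start says only that it is not at that base.

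The following windows of 45 bases, 25 before and 20 from the annotated start, are written 5′ to 3′ along the gene, with the uninterrupted pyrimidine tract from the start in capitals. First come RPS3, the highest by mean, RPLP2 of the stalk, RPS6 and RPS24. With them is RPL39, which has the longest tract and lay below the median FPKM of the tested members in each group.
RPS3 (chr11:75399493-75399537, plus strand): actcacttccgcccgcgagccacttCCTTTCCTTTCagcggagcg
RPLP2 (chr11:809942-809986, plus strand): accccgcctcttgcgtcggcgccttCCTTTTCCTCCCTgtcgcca
RPS6 (chr9:19380217-19380261, minus strand): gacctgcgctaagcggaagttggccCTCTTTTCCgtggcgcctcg
RPS24 (chr10:78033838-78033882, plus strand): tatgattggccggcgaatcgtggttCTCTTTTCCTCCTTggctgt
RPL39 (chrX:119791611-119791655, minus strand): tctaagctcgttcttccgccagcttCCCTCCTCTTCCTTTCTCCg
The next set shows members at low level, and RPS27L, at a mean of 126 FPKM over the groups. RPS16 and RPS27 carry a tract, RPS28 and RPS26 have none at the annotated start and RPS27L, the paralog of RPS27, has none either.
RPS16 (chr19:39435930-39435974, minus strand): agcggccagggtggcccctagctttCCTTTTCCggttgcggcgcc
RPS27 (chr1:153990737-153990781, plus strand): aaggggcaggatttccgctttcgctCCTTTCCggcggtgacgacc
RPS27L (chr15:63157458-63157502, minus strand): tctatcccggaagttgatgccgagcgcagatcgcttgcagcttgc
RPS28 (chr19:8321471-8321515, plus strand): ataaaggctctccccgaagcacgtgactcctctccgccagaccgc
RPS26 (chr12:56041893-56041937, plus strand): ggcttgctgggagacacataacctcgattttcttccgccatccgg
The last pair are paralogs, of which RPL22L1 lies outside the choice of members because its name ends in L and a number.
RPL22 (chr1:6199576-6199620, minus strand): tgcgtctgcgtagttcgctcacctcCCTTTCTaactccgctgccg
RPL22L1 (chr3:170870176-170870220, minus strand): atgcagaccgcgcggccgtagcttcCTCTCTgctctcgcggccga
Members with a tract were thus present at both ends of the range of levels. The windows were picked as examples and do not show how tract and level go together. RPL32, RPL3 and RPL27, at means of 2990, 2488 and 2066 FPKM over the groups, had no tract at the annotated start and are not shown. Of 2 other sequences searched on both strands in the 300 bases from 250 before to 50 after the start, CCGGAA, the core of ETS factor sites, was in 34 of 54 members (63.0%) and in 20.1% of all genes. AAGATGGC, the core of the YY1 site, was in 6 members (11.1%) and in 3.52% of all genes. Neither sequence can lie wholly within a pyrimidine tract, though the pair can share bases with each other, and a match is a description, not a site.

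Levels within the family spanned almost 4 orders of magnitude per length. The tested members ranged from 3.05 to 20225 FPKM on 400 Pa and from 3.02 to 18222 FPKM on 60 kPa at day 3.5, and from 4.15 to 16281 FPKM on 400 Pa and from 4.36 to 12440 FPKM on 60 kPa at day 0. Their median was 1234 FPKM on 400 Pa and 1194 FPKM on 60 kPa at day 3.5, against 992 FPKM on 400 Pa and 999 FPKM on 60 kPa at day 0. The tested members together held 6.94% (400 Pa) and 6.52% (60 kPa) of the summed FPKM at day 3.5, and 6.48% (400 Pa) and 6.41% (60 kPa) at day 0. The order of the levels was nearly the same in all groups: across the 65 genes Spearman's rho was 0.997 between the gels at day 3.5 and 0.992 at day 0, and 0.980 on 400 Pa and 0.993 on 60 kPa between the days. These correlations run over genes of the same tables, which are not independent replicates.

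**Figure D1:**
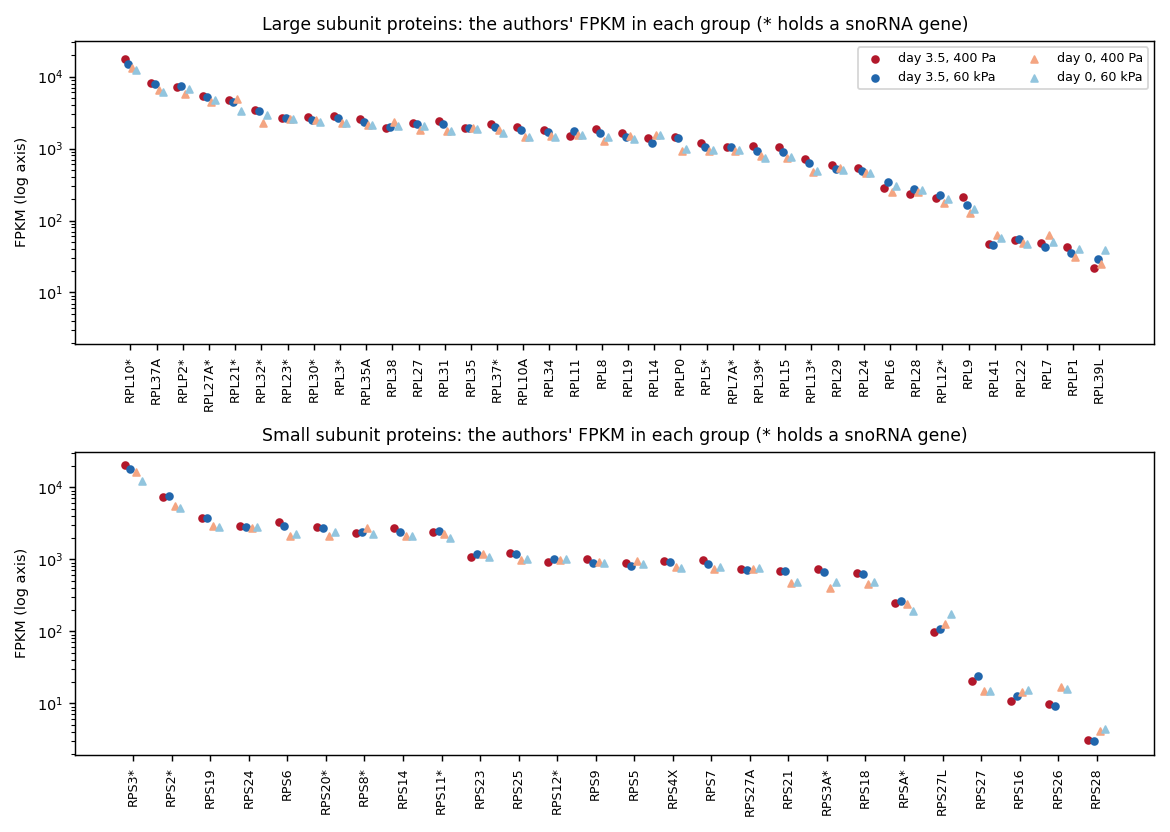
The authors' FPKM (log axis) of 64 tested members in each group, in order of their mean, with the large subunit above and the small subunit below; circles are day 3.5 and triangles day 0, red shades 400 Pa and blue shades 60 kPa, with no error bar because each group has 1 value. The points of a gene lie close together while the genes range from RPS3 at up to 20225 FPKM to RPS28 at 3.02 to 4.36 FPKM.

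RPS3, a small subunit protein at the mRNA entry channel that also acts in DNA repair (deposited locus chr11:75110530-75141674, hg19), had the highest mean over the groups. It was at 20225 FPKM on 400 Pa and 18222 FPKM on 60 kPa at day 3.5, and at 16281 FPKM on 400 Pa and 12328 FPKM on 60 kPa at day 0. RPL10 (chrX:153618315-153650151), which reaches towards the catalytic centre and is needed for the subunits to join, came second by mean and was above RPS3 on 60 kPa at day 0. It was at 17421 FPKM on 400 Pa and 14931 FPKM on 60 kPa at day 3.5, and at 13262 and 12440 FPKM on these gels at day 0. RPL37A of the large subunit and RPLP2 were also among the 5 highest by mean, at 7170 and 6762 FPKM over the groups. The 5 highest members of each group held 41.7% (400 Pa) and 41.3% (60 kPa) of the family's FPKM at day 3.5, and 39.4% (400 Pa) and 37.3% (60 kPa) at day 0. A small number of loci thus set the family's sum, and RPS3 was also among the 10 highest loci of the whole table on 400 Pa at day 3.5.

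At the other end stood, besides the paralog RPL39L, genes of proteins that are as integral to the ribosome as the rest. RPS28 and RPS26, which lie near the channel where the mRNA leaves, averaged 3.64 and 12.9 FPKM over the groups. RPS16 and RPS27 averaged 13.1 and 18.5 FPKM, and RPLP1 of the stalk 37.7 FPKM. RPL39L, a paralog of RPL39, averaged 28.5 FPKM. RPS28, for example, was at 3.05 FPKM on 400 Pa and 3.02 FPKM on 60 kPa at day 3.5, and at 4.15 FPKM on 400 Pa and 4.36 FPKM on 60 kPa at day 0. On 400 Pa at day 3.5 the pseudogene rows of these genes summed to between 0 and 6.60 FPKM, the highest being those of RPS27. Small sums in those rows do not show that the low values are the genes' true levels. Whether the authors' counting lowered them was not tested.

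Other rows bear on these levels. In the day 3.5 table, 53 of the 65 tested members had pseudogene rows of their name, 330 in all, and for 12 members the pseudogenes' summed FPKM on 400 Pa was above the gene's own. For RPL39, whose product lines the exit tunnel, the pseudogenes summed to 5318 FPKM beside 1087 FPKM of the gene. For RPL7 they summed to 1334 FPKM beside 48.8 FPKM. The other 10 were RPL12, RPL24, RPL3, RPL6, RPLP0, RPS18, RPS23, RPS3A, RPS7 and RPSA. The levels of these genes are uncertain, since processed copies share sequence with the gene and the authors' counting could split reads between them. Some deposited loci also span far more than the gene, as that of RPL31 (chr2:101436614-101886778) does.

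The 5 untested symbols were at or near 0, which is why the filter on low values left 65 members. RPL3L, the muscle paralog of RPL3, was at 0.364 FPKM on 400 Pa and 0.169 FPKM on 60 kPa at day 3.5, and at 0.0610 and 0.192 FPKM on these gels at day 0. RPL10L, the testis paralog of RPL10, was listed at day 0 only, at 0 on 400 Pa and 0.0567 FPKM on 60 kPa. RPS10L was at 0.146 to 0.650 FPKM in the groups. A second row of RPL13A, at day 3.5 only, was listed at 0 on 400 Pa and at 0.374 FPKM on 60 kPa.

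A further 13 genes of the family, RPL13A among them, had their reads in rows that merge several symbols, so they were not members and cannot be split from their neighbours.

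Between the gels, no member was called on either day. A change is the log2 of (FPKM + 1) on the soft gel over (FPKM + 1) on the stiff gel, a scale that understates the change of low genes, and a call is a q-value under 0.05 in the authors' deposited table, where the log2 ratio runs the other way, 60 kPa over 400 Pa. At day 3.5, 0 of 65 members were called, where 1.33% of 18225 tested loci were (1.08% higher and 0.252% lower on 400 Pa). At day 0, 0 of 65 were called, where 0.139% of 17315 loci were (0.0635% higher and 0.0751% lower on 400 Pa). Nor did any member reach an unadjusted p of 0.05 in the authors' deposited table on either day (0 of 65 each), a mark that 5.93% of the loci passed at day 3.5 and 1.86% at day 0. The smallest unadjusted p of a member in the authors' deposited table was 0.325 at day 3.5, for RPL9, and 0.0627 at day 0, for RPL39L.

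The differences that were measured were small. The median change of the 65 members was 0.07 at day 3.5, with quartiles of -0.03 and 0.16 and extremes of -0.39 and 0.35, and the median of all tested loci was 0.02. At day 0 it was -0.02, with quartiles of -0.09 and 0.09 and extremes of -0.60 and 0.54, and the median of all tested loci was again 0.02. At day 3.5, 43 members lay higher and 22 lower on 400 Pa, but rescaled to the sum without the 10 highest loci the median was 0.01 and 36 lay higher. Of all tested loci 51.9% lay higher on 400 Pa at day 3.5, and of the 1164 loci at 100 FPKM or more 68.9% did. At day 0, 28 members lay higher and 37 lower on 400 Pa, which became 16 higher and a median of -0.11 when rescaled, beside 53.9% of all loci and 54.4% of those at 100 FPKM or more higher. Large and small subunit genes had close medians, of 0.08 and 0.04 at day 3.5 and of -0.02 for both at day 0. Within 1.25-fold, a mark chosen after the values were seen, lay 63 of 65 members at day 3.5 and 58 of 65 at day 0. The share of all loci within this mark was not counted. Quartiles of the change over all tested loci were -0.25 and 0.28 at day 3.5, and -0.15 and 0.20 at day 0.

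Most of these differences were smaller than the error of the comparison. The standard error (SE) is the deposited log2 ratio over the deposited test statistic, an approximation that refers to the ratio with no pseudocount added. Its median over the members was 0.47 at day 3.5 and 0.36 at day 0, with ranges of 0.40 to 2.77 and of 0.30 to 2.20. An approximate 95% interval of 1.96 SE either side lay within a log2 ratio of 1 of zero for 28 members at day 3.5 and for 41 at day 0. For the other members a difference of 2-fold in at least 1 direction lay within the interval, so that these data do not show their levels to be equal. The log2 ratio was larger than its SE for 0 of 65 members at day 3.5 and for 2 at day 0, RPL39L and RPS27L. None of the 65 intervals left out zero on either day. The intervals take the statistic as normal, which the deposited p-values do not. RPL39L at day 0 had a statistic of 1.34 and an unadjusted p of 0.0627 in the authors' deposited table, below the normal value. The intervals can therefore be wider than the authors' test implies.

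**Figure D2:**
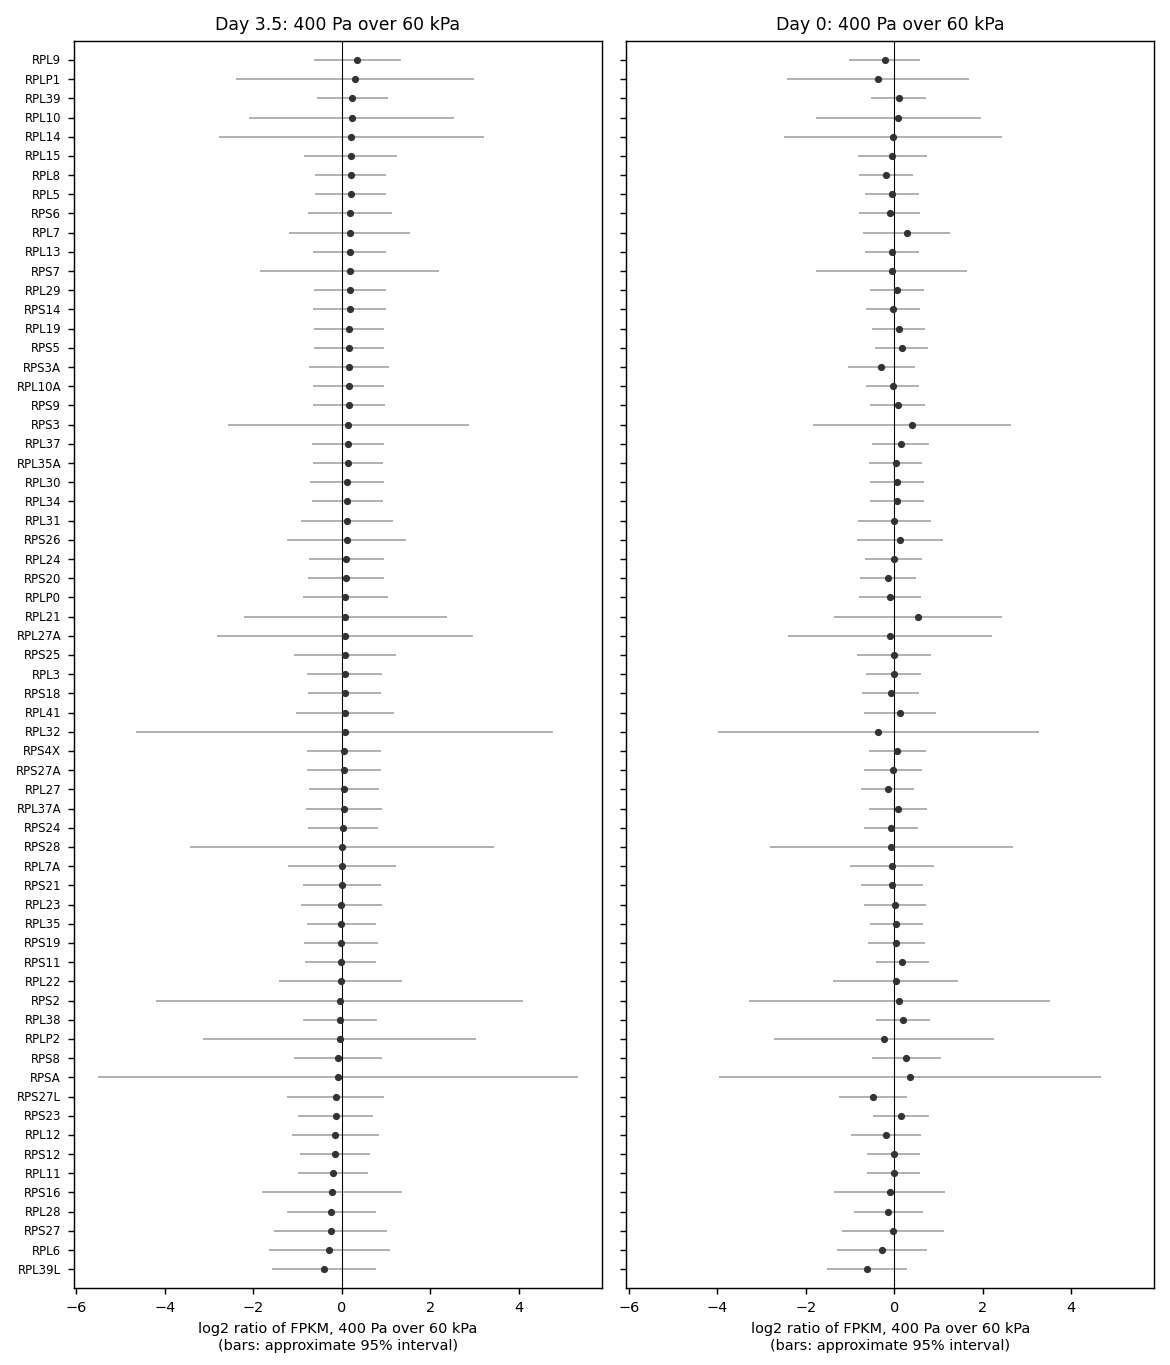
The log2 ratio of FPKM, 400 Pa over 60 kPa, of 64 tested members at day 3.5 (left) and day 0 (right), in order of the day 3.5 ratio; points are the ratio and bars the approximate 95% interval of 1.96 SE. Every bar crosses zero, and the widest, of RPSA, has an SE of 2.77 at day 3.5.

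The largest measured difference on both days was that of RPL39L (chr3:186838541-186898717), a paralog of RPL39 that is abundant in the testis. It was at 21.8 FPKM on 400 Pa and 28.9 FPKM on 60 kPa at day 3.5, and at 25.04 FPKM on 400 Pa and 38.4 FPKM on 60 kPa at day 0, a change of -0.39 (SE 0.60) and of -0.60 (SE 0.46). Lower on 400 Pa on both days, it nevertheless had a q-value near 1 in the authors' deposited table each time. RPL39 itself was at 1087 FPKM on 400 Pa and 919 FPKM on 60 kPa at day 3.5, and at 782 FPKM on 400 Pa and 728 FPKM on 60 kPa at day 0, with changes of 0.24 and 0.10. The paralogs thus lay on opposite sides of zero on both days, with intervals that include zero.

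RPS27L (chr15:63413999-63450220), a target of p53 in other settings, was lower on 400 Pa as well. It was at 97.6 FPKM on 400 Pa and 107 FPKM on 60 kPa at day 3.5, and at 126 FPKM on 400 Pa and 176 FPKM on 60 kPa at day 0. Its change at day 0 was -0.48 (SE 0.39), with an unadjusted p of 0.0807 in the authors' deposited table. RPS27 was at 20.2 FPKM on 400 Pa and 24.1 FPKM on 60 kPa at day 3.5, a change of -0.24, and at 14.7 FPKM on 400 Pa and 14.96 FPKM on 60 kPa at day 0. Here both members of the pair were lower on 400 Pa at day 3.5.

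Among the genes higher on 400 Pa at day 3.5, RPL9 of the large subunit (chr4:39408473-39460568) had the largest change, 0.35 (SE 0.50), at 209.6 FPKM on 400 Pa and 164 FPKM on 60 kPa. At day 0 it was at 126 FPKM on 400 Pa and 147 FPKM on 60 kPa, on the other side of zero. RPLP1 of the stalk turned in the same way, with a change of 0.29 at day 3.5 and of -0.35 at day 0, at SEs of 1.37 and 1.05. RPL10 had a change of 0.22 (SE 1.18) at day 3.5 and of 0.09 at day 0. RPL6 and RPL28, both of the large subunit, were lower on 400 Pa at day 3.5, with changes of -0.28 and -0.23.

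At day 0 the largest changes upward on 400 Pa were those of RPL21 and RPS3. RPL21 was at 4831 FPKM on 400 Pa and 3321 FPKM on 60 kPa, a change of 0.54 (SE 0.97), while at day 3.5 its change was 0.08. RPS3, with the levels given above, had a change of 0.40 (SE 1.14) at day 0 and of 0.15 at day 3.5. RPSA (chr3:39448180-39454033), which also serves as a laminin receptor at the cell surface, was at 242 FPKM on 400 Pa and 189.5 FPKM on 60 kPa at day 0, a change of 0.35 with an SE of 2.20. RPL7 had a change of 0.28 (SE 0.50), and RPL32 one of -0.36 (SE 1.85). None of these differences stood clear of its error.

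Changes of the same gene on the 2 days bore little relation to each other. Across the 65 genes Pearson's r was 0.18 and Spearman's rho 0.03, a description over genes. Both days were higher on 400 Pa for 17 members and lower for 11, 26 were higher at day 3.5 and lower at day 0, and 11 the reverse. The shares of all loci in these patterns were not counted, so the counts stand without a background. Nor were the patterns recounted after the rescaling, which left 36 members higher on 400 Pa at day 3.5 and 16 at day 0. In a test of the difference between the days, from both ratios and their SEs by a normal approximation, 0 of 65 members had an adjusted p under 0.05 (Benjamini-Hochberg over 15090 loci), where 0.0729% of the loci did. None had an unadjusted p under 0.05, and the smallest was 0.383, for RPL9, a normal approximation across the fitted loci. This test used the same SEs and normal scale as the intervals, so it can be more cautious than the authors' comparison.

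Wide errors were found at high as well as low levels, but less often among the members than among all tested loci. At day 3.5, 9066 of 18225 tested loci had an SE above 1, against 12 of the 65 members. At day 0, 6771 of 17315 loci did, against 9 of the 65 members. The loci had a lower median level, 7.58 FPKM on 400 Pa at day 3.5, and were not matched to the members by level. At day 3.5, 12 members had an SE above 1, namely RPSA, RPL32, RPS2, RPS28, RPLP2, RPL14, RPL27A, RPS3, RPLP1, RPL10, RPL21 and RPS7. Of these RPSA had 2.77, RPL32 2.41 and RPS2, a protein of the entry channel, 2.12, and RPS28, the lowest tested member, had 1.75, whereas RPL39L, at 28.5 FPKM on average, had 0.60. In GENCODE release 29, in which 69 of 70 symbols were matched, 24 members hold 45 snoRNA genes on their own strand. An SE above 1 was found for 8 of the 23 tested hosts and for 4 of 42 other tested members at day 3.5, and for 6 and 3 at day 0. Hosts had a median of 2636 FPKM on 400 Pa and 2521 FPKM on 60 kPa at day 3.5, against 993 and 900.5 FPKM for members without a snoRNA gene.

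Hosts of snoRNA genes were the larger share of the family's signal, at 65.1% of its FPKM on either gel at day 3.5 and at day 0 at 64.1% for 400 Pa and 62.3% for 60 kPa. RPS3 holds SNORD15A and SNORD15B, RPL10 holds SNORA70, RPLP2 holds SNORA52 and RPS2 holds SNORA10 and SNORA64. RPL37A, for comparison, holds none. Libraries of total RNA can take in reads of such small RNAs, and their part in the hosts' levels was not tested.

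**Figure D3:**
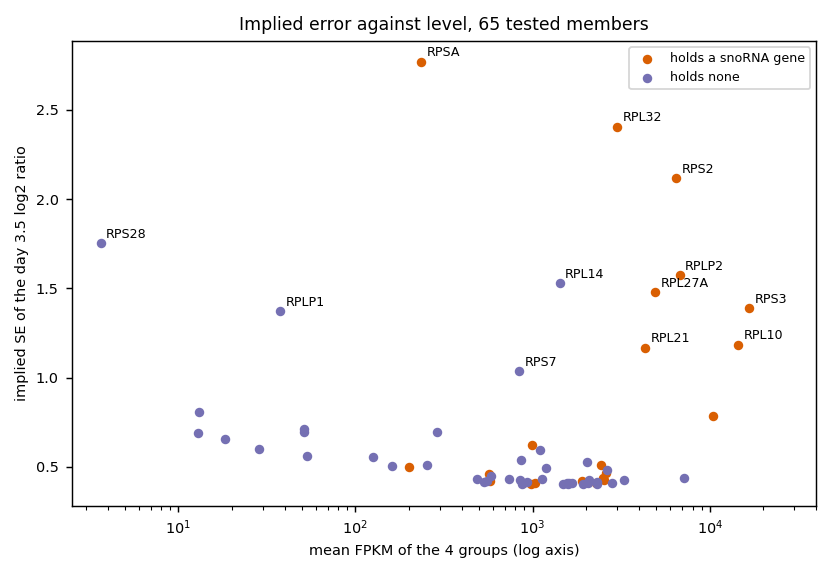
The SE of the day 3.5 log2 ratio, 400 Pa over 60 kPa, against the mean FPKM of the groups (log axis) for the 65 tested members; orange points hold a snoRNA gene and violet points hold none. Most members lie near an SE of 0.47, and the 12 named ones lie above 1, RPSA at 2.77.

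Between the days most members were higher in induced cells. The tables of the 2 days were made separately and no test can be run across them, so the following are descriptions of 1 value per group. On 400 Pa the median log2((FPKM + 1) at day 3.5 / (FPKM + 1) at day 0) of the 65 members was 0.26, with quartiles of -0.01 and 0.43 and extremes of -0.73 and 0.88. On 60 kPa it was 0.16, with quartiles of 0.04 and 0.30 and extremes of -0.71 and 0.76. The median of all loci was -0.02 on both gels. On 400 Pa 48 members were higher at day 3.5, beside 48.5% of 14912 loci, and on 60 kPa 53 were, beside 48.6% of 14897 loci. Among loci at 100 FPKM or more, 47.4% were higher at day 3.5 on 400 Pa and 39.1% on 60 kPa.

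The size of this difference depends on the scaling and on the members counted. The 10 highest loci of a group held 44.9% to 52.1% of its summed FPKM. Rescaled to the sum without them, the medians were 0.19 on 400 Pa, with 45 members higher at day 3.5, and 0.06 on 60 kPa, with 42 higher. Centred on the median locus, they were 0.29 and 0.18. The direction of the median held under each of these scalings, whereas its size on 60 kPa moved by more than 1.5 times, and was then smaller in size than the rescaled median between the gels at day 0 (-0.11). Over the 38 members that hold no small RNA gene the median was 0.16 on 400 Pa, with 25 higher at day 3.5, again a move of more than 1.5 times, and 0.13 on 60 kPa, with 26 higher.

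A fold of at least 1.25 upward at day 3.5 was reached by 24 members on 400 Pa, where 27.3% of all loci reached it, and by 16 on 60 kPa, where 24.5% did. The same fold downward was reached by 6 members on each gel, where 28.9% of loci on 400 Pa and 25.7% on 60 kPa did. Among loci at 100 FPKM or more the upward fold was reached by 23.7% on 400 Pa and 16.3% on 60 kPa, and the downward fold by 27.8% and 33.2%. On both gels 12 members were past it upward, among them RPL13, RPL31, RPL39, RPLP0, RPS18, RPS19, RPS2, RPS21, RPS27, RPS3A and RPS6. Downward on both gels were RPL41, RPS26, RPS27L and RPS28. The shares of all loci past the fold on both gels were not counted, so the counts on both gels stand without a background. After the rescaling 6 of the 12 were still past it upward on both gels, among them RPLP0, RPS2, RPS21, RPS27 and RPS3A, and 6 members were downward on both, the 4 above with RPL7 and RPS16.

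RPS3A of the small subunit had the largest difference on 400 Pa. It was at 736 FPKM on 400 Pa and 658 FPKM on 60 kPa at day 3.5, against 401 FPKM on 400 Pa and 489 FPKM on 60 kPa at day 0, differences of 0.88 on 400 Pa and 0.43 on 60 kPa. Both day 3.5 values lay above both day 0 values, and its pseudogenes summed to 1354 FPKM on 400 Pa at day 3.5. RPL9 differed by 0.72 on 400 Pa and by 0.16 on 60 kPa, so that its day 0 value on 60 kPa, 147 FPKM, lay close to the 164 FPKM of that gel at day 3.5.

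RPS6, the protein phosphorylated by the S6 kinases below mTOR, was at 3251 FPKM on 400 Pa and 2863 FPKM on 60 kPa at day 3.5, against 2105 FPKM on 400 Pa and 2266 FPKM on 60 kPa at day 0. RPS19, the gene most often mutated in Diamond-Blackfan anaemia, was at 3691 FPKM on 400 Pa and 3733 FPKM on 60 kPa at day 3.5, against 2863 FPKM on 400 Pa and 2770 FPKM on 60 kPa at day 0. In both genes the day 3.5 values lay above the day 0 values on each gel. RPSA was at 248 FPKM on 400 Pa and 264 FPKM on 60 kPa at day 3.5, against 242 FPKM on 400 Pa and 189.5 FPKM on 60 kPa at day 0.

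The stalk, which draws elongation factors to the ribosome, is built from RPLP0 with RPLP1 and RPLP2. RPLP0 was at 1468 FPKM on 400 Pa and 1385 FPKM on 60 kPa at day 3.5, against 936 FPKM on 400 Pa and 999 FPKM on 60 kPa at day 0, differences of 0.65 and 0.47. RPLP2 was at 7154 FPKM on 400 Pa and 7384 FPKM on 60 kPa at day 3.5, against 5750 FPKM on 400 Pa and 6762 FPKM on 60 kPa at day 0. RPLP1 was at 43.4 FPKM on 400 Pa and 35.4 FPKM on 60 kPa at day 3.5, against 31.5 FPKM on 400 Pa and 40.3 FPKM on 60 kPa at day 0. RPLP1 alone of the stalk genes had overlapping days, and its level was far below that of its partners in every group.

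RPL5 and RPL11 bind the smallest ribosomal RNA of the large subunit and, when free, the p53 regulator MDM2. RPL5 was at 1196 FPKM on 400 Pa and 1042 FPKM on 60 kPa at day 3.5, against 928 FPKM on 400 Pa and 962 FPKM on 60 kPa at day 0, differences of 0.37 and 0.12. RPL11 was at 1515 FPKM on 400 Pa and 1736 FPKM on 60 kPa at day 3.5, against 1522 FPKM on 400 Pa and 1538 FPKM on 60 kPa at day 0, differences of -0.01 and 0.17. RPL5 was thus higher at day 3.5 on both gels, and RPL11 on 60 kPa only.

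Of the genes lower at day 3.5, RPS26 was at 9.90 FPKM on 400 Pa and 9.17 FPKM on 60 kPa at day 3.5, against 17.1 FPKM on 400 Pa and 15.6 FPKM on 60 kPa at day 0, differences of -0.73 and -0.70. RPS27L differed by -0.36 on 400 Pa and -0.71 on 60 kPa, while its paralog RPS27 differed by 0.43 and 0.65. RPL39L differed by -0.19 and -0.40, while RPL39 differed by 0.47 and 0.34. In both pairs the paralog was lower at day 3.5 and the canonical gene higher, on each gel. RPL41, the shortest ribosomal protein, differed by -0.42 on 400 Pa and -0.35 on 60 kPa.

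**Figure D4:**
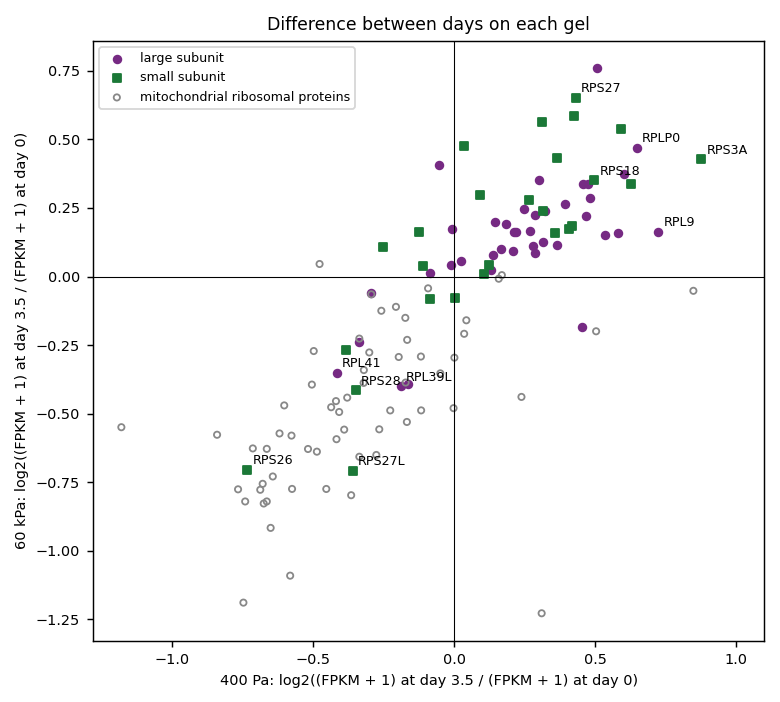
Difference between days, log2((FPKM + 1) at day 3.5 / (FPKM + 1) at day 0), on 400 Pa (horizontal) and 60 kPa (vertical) for the 65 tested members (large subunit violet circles, small subunit green squares) and 61 mitochondrial ribosomal protein genes (open grey circles). Of the members 46 lie in the upper right part and 10 in the lower left, while most mitochondrial genes lie in the lower left.

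The paralogs outside the choice of members repeat this only in part. RPL22, whose product also regulates lymphocyte development, was at 53.9 FPKM on 400 Pa and 54.8 FPKM on 60 kPa at day 3.5, against 48.7 FPKM on 400 Pa and 47.6 FPKM on 60 kPa at day 0. RPL22L1 was at 436 FPKM on 400 Pa and 379 FPKM on 60 kPa at day 3.5, against 479 FPKM on 400 Pa and 509 FPKM on 60 kPa at day 0, and so stood well above RPL22 per length in every group. RPL36AL differed by -0.57 on 400 Pa and -0.60 on 60 kPa, RPL26L1 by -0.58 and -0.62, and RPL7L1 by -0.08 and -0.17. RPL7 differed by -0.34 and -0.24 in the same direction as RPL7L1, and the genes RPL26 and RPL36A are in merged rows. RPL3 and RPS4X, the X-linked copy of its gene, differed by 0.32 and 0.26 on 400 Pa and by 0.24 and 0.28 on 60 kPa.

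As deposited, hosts of snoRNA genes and the other members both leaned to day 3.5. The median difference of the 23 tested hosts was 0.31 on 400 Pa, with 20 higher at day 3.5, and 0.24 on 60 kPa, with 23 higher. For the 42 others it was 0.20 on 400 Pa, with 28 higher, and 0.16 on 60 kPa, with 30 higher. After the rescaling the hosts had medians of 0.24 on 400 Pa and 0.13 on 60 kPa, with 18 and 20 higher. The others then had medians of 0.12 on 400 Pa and 0.05 on 60 kPa, with 27 and 22 of 42 higher. The lean of the others on 60 kPa was thus slight when rescaled. No test of hosts against the others was made.

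Other genes of the pathway give the setting of these values. GNB2L1, the scaffold RACK1 of the small subunit, was at 4048 FPKM on 400 Pa and 4025 FPKM on 60 kPa at day 3.5, against 3376 FPKM on 400 Pa and 3490 FPKM on 60 kPa at day 0. Of 61 mitochondrial ribosomal protein genes, which serve the separate ribosome of the mitochondrion, 9 were higher at day 3.5 on 400 Pa and 2 on 60 kPa, with median differences of -0.36 and -0.49. Of 21 tested ribosome biogenesis genes, 2 were higher at day 3.5 on 400 Pa and 1 on 60 kPa, with medians of -0.57 and -0.52. NCL, the nucleolar protein nucleolin, was at 92.8 FPKM on 400 Pa and 99.3 FPKM on 60 kPa at day 3.5, against 160 FPKM on 400 Pa and 185 FPKM on 60 kPa at day 0. The medians of both lists stayed below 0 when rescaled, at -0.44 and -0.59 for the mitochondrial genes and at -0.64 and -0.61 for biogenesis.

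The TOP mRNAs of other translation genes, 15 tested, had median differences of 0.03 on 400 Pa and -0.03 on 60 kPa, which were -0.04 and -0.13 when rescaled. Of 12 tested regulators, 4 were higher at day 3.5 on each gel, with medians of -0.34 and -0.38. MYC, a driver of ribosome production, was at 7.65 FPKM on 400 Pa and 4.06 FPKM on 60 kPa at day 3.5, against 11.4 FPKM on 400 Pa and 16.6 FPKM on 60 kPa at day 0. LARP1 was at 17.3 FPKM on 400 Pa and 20.2 FPKM on 60 kPa at day 3.5, against 31.4 FPKM on 400 Pa and 38.1 FPKM on 60 kPa at day 0. Cytosolic ribosomal protein genes therefore lay on the upper side of these lists between the days, a difference for which no test was made.

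Between the gels, 0 mitochondrial ribosomal protein, biogenesis and regulator genes were called on either day. An unadjusted p under 0.05 in the authors' deposited table was reached by 0 mitochondrial ribosomal protein genes on either day, by 0 biogenesis genes at day 3.5 and 1 at day 0, and by 1 regulator on each day. Mitochondrial ribosomal protein genes had a median change of 0.13 at day 3.5, with 50 of 61 higher on 400 Pa. Rescaling put it at 0.07, with 46 of 61 higher. At day 0 their median change was 0.01, and rescaling turned it to -0.08. The TOP list had 1 call each day, VIM, the intermediate filament vimentin. It was at 552 FPKM on 400 Pa and 187 FPKM on 60 kPa at day 3.5, a change of 1.55, and at 139 FPKM on 400 Pa and 270.2 FPKM on 60 kPa at day 0, a change of -0.95. In the authors' deposited table its q-value was 0.00783 at day 3.5 and 0.0390 at day 0, at levels within the range of the members.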

How the data were processed

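RNA of 8 libraries, 2 in each of 4 groups, was sequenced from total RNA recovered with TRIzol, per the labels' protocols. Per the submitters' processing notes, the authors derived FPKM with Cufflinks against hg19. For versions, aligner, annotation, strand setting and depth the entry is "not given in the sources used here". Per the file headers, each deposited table (1 per day) lists for every locus the FPKM of both gels, their log2 ratio (stiff over soft), a score (the test statistic), the p-value and the q-value. Single libraries were not analysed here. The planned test over libraries could therefore not be run, and the authors' comparison was used, as the design foresaw.

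Calls were q-values under 0.05 for loci reaching an FPKM of 1 on either gel. Changes were computed on log2(FPKM + 1). The implied SE is the deposited log2 ratio over the test statistic. The difference between days used both ratios and SEs (normal approximation). This step was run on simulated data drawn with these same SEs, which cannot show whether the SEs or the normal scale hold here. Overlapping genes, antisense ones included, cannot be separated. SnoRNA genes came from GENCODE 29 by symbol, and sequences from RefSeq (GRCh38.p14), whose coordinates were not mixed with hg19. The members and lists were chosen with earlier results of these data known. Named genes were the 5 highest and 5 lowest members by mean FPKM (the lowest being the 5 untested symbols), the 4 largest changes per day and direction, all called members (0), the paralog pairs, the stalk genes, RPL5, RPL11, RPS6, RPS19 and RPSA. Members past 1.25-fold between days on both gels, the members with an SE above 1, the next lowest members and the genes named from other lists were chosen after their values were seen. Alternatives were other pseudocounts (0.1, 0.5), FPKM minimums (none, 5), q thresholds (0.1, 0.01), a recomputed adjustment, 2 scalings, a wider list of paralogs, and members without small RNA genes. Some genes are not reported here. The tools were matplotlib 3.10.9, scipy 1.17.1, numpy 2.4.6, pandas 2.3.3 and Python 3.11.15.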

Additional observations from a re-analysis of the deposited data

How the results depend on the processing

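No call was gained under any alternative: 0 members were called at q-value thresholds of 0.1 and 0.01, under other FPKM minimums, with the adjustment recomputed, or with the paralogs added. The median of the 65 members kept its sign in each comparison, while some medians of other lists and of the snoRNA hosts crossed 0 when rescaled, among them the hosts between gels at day 0 (0.02 as deposited, -0.07 rescaled), the mitochondrial genes in the same comparison (0.01 and -0.08) and the TOP list between days on 400 Pa (0.03 and -0.04). Judged against limits of 1.5 times for counts and shares and the interquartile range over members for medians, 8 values moved, all of them shares. That limit for medians is wide: rescaling put the median between gels at day 3.5 at 0.01 against 0.07 as deposited, and the median between days on 60 kPa at 0.06 against 0.16. Leaving out the 10 highest loci from the sum, the members held 11.9% (400 Pa) and 13.6% (60 kPa) at day 3.5, and 11.8% (400 Pa) and 11.9% (60 kPa) at day 0. On 400 Pa at day 3.5 RPS3, the highest member, was itself among those 10 and was left out of the members' sum. In the other groups RPS3 was kept, so that share is not comparable with theirs. Counting only members without a small RNA gene, they held 2.08% (400 Pa) and 1.95% (60 kPa) at day 3.5, and 2.03% (400 Pa) and 2.10% (60 kPa) at day 0. Under both the order of the groups differed from that of the deposited values. The rescaling without the 10 highest loci shifted every gene by -0.06 (400 Pa against 60 kPa, day 3.5), -0.10 (the same at day 0), -0.07 (day 3.5 against day 0 on 400 Pa) and -0.10 (the same on 60 kPa). At day 0 it put the median change between gels at -0.11, with 16 of 65 members higher on 400 Pa, against 28 of 65 as deposited.

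No paired analysis was possible because the deposited columns hold 1 value per group. For the same reason leaving out each library and a replicate block were not run. Depth is unknown, so that precision rests on the implied SEs alone, and these come from the authors' comparison of 2 libraries a group. The 1.25-fold mark was chosen after the values were seen.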
